A study of Mus musculus with 9 samples.

Results

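The genes examined here encode ubiquitin-conjugating (E2) enzymes. They were chosen as 29 named genes: 26 Ube2 genes, Cdc34, Birc6, and Aktip, an E2-like protein without catalytic activity. The E2 enzymes for NEDD8, Ube2m and Ube2f, are the targets of the hairpins and not part of the set. Of the 29 genes, 28 had a probe set that names them alone, out of 18193 genes with such a probe set. The exception was Ube2l3, named only on 4 probe sets that also list other genes, so no value is given for it. All 28 passed the filter on low signals, out of 10613 genes tested.

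Ubiquitin is activated by an E1 enzyme, passed to the active-site cysteine of an E2, and transferred to a substrate with the help of an E3 ligase. The E2 often decides which chain is built: some E2 enzymes place the first ubiquitin, and others extend chains through lysine 48, lysine 11 or lysine 63. NEDD8 is a ubiquitin-like protein that travels through a parallel cascade to the cullin subunits of cullin-RING ligases, through Ube2m, which works with Rbx1, or Ube2f, which works with Rnf7 (Rbx2). Neddylated cullin-RING ligases in turn draw on ubiquitin E2 enzymes such as Cdc34, the Ube2d enzymes and Ube2g1.

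RNA was measured in NIH 3T3 cells, an immortalised line of mouse embryonic fibroblasts, on 1-colour Affymetrix arrays. The 9 arrays comprised 3 labelled biological replicates in each of 3 groups, which carried a retroviral vector with a control shRNA, a Ube2m shRNA or a Ube2f shRNA and were collected on day 5 after transduction. The growth text states for all 9 samples, controls included, that the cells expressed Ube2f, and does not say how. The number of hairpins per target and their sequences were not used here. The question put to these genes was whether either hairpin also moved the mRNA of related conjugating enzymes.

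Median signals per array ran from 53.3 to 58.5 in replicates 1 and 2 (6 arrays) and from 64 to 73.5 in replicate 3 (3 arrays). The beta-actin 3'/5' signal ratio, a sign of RNA integrity, was 1.82 on control replicate 1 and 1.24 to 1.35 on the other 8 arrays. Signals of the hybridisation spikes were lower on control replicates 1 and 2 (2465 and 2268) than on the 4 hairpin arrays of those replicates (3269 to 3867), and the order was the other way round in replicate 3 (3265 against 2184 and 2289). All 8 fibroblast markers passed the filter, with a summed signal of 124401 to 150120 in controls, 118250 to 131243 with Ube2m shRNA and 130377 to 146374 with Ube2f shRNA. Of the markers of other cell types, none of 4 endothelial and none of the 2 adipocyte genes with a probe set passed, whereas 2 of 5 macrophage genes (Csf1r and Cd14), 2 of 5 epithelial genes (Cdh1 and Epcam) and 2 of 4 skeletal muscle genes (Des and Acta1) did. The muscle sum was 555.3 to 772.4 in controls, 1009 to 1168 with Ube2m shRNA and 578.6 to 641.5 with Ube2f shRNA. With Ube2m shRNA, 1 of the 2 tested muscle genes was called higher (3.59% of all genes were), and the other was not above control. Of the 2 tested macrophage genes 1 lay above control with Ube2m shRNA, and likewise 1 of the 2 tested epithelial genes. The macrophage sum was 688.5 to 750 in controls, 711.5 to 944.9 with Ube2m shRNA and 514.3 to 587.1 with Ube2f shRNA, and the epithelial sum 249.1 to 378.9, 325.9 to 355.5 and 373.9 to 475.8. Of the fibroblast markers, 2 of 8 (Thy1 and Lox) fell with Ube2m shRNA, where the median of the 8 was -0.21, and 1 (Lox) fell with Ube2f shRNA, where it was 0.03. Over all genes tested, 6.12% were called lower with Ube2m shRNA and 2.96% with Ube2f shRNA. The part of these markers in the differences below was not tested. In such bulk samples fewer cells of a type and less RNA per cell cannot be told apart.

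The promoters of the 4 E2 genes that passed the test in any comparison are shown because the comparisons turn on these genes: Ube2c, Ube2t and Ube2g1 read highest on the 3 Ube2m shRNA arrays, and Ube2q1 lowest on the 3 Ube2f shRNA arrays. They are the 250 bases before the annotated start from RefSeq (build GRCm38.p6), at chr2:164769679-164769928 for Ube2c, chr1:134962315-134962564 for Ube2t, chr11:72607011-72607260 for Ube2g1 and chr3:89773359-89773608 for Ube2q1, all on the plus strand. Capitals mark TTTGAA, the core of a cell cycle gene homology region, and CCAAT, the box bound by NF-Y, each searched on both strands.
Ube2c promoter: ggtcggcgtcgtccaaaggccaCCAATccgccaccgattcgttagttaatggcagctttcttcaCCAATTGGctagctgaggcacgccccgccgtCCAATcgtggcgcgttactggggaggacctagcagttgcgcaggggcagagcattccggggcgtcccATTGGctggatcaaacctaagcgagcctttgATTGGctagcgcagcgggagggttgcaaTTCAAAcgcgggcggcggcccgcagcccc
Ube2t promoter: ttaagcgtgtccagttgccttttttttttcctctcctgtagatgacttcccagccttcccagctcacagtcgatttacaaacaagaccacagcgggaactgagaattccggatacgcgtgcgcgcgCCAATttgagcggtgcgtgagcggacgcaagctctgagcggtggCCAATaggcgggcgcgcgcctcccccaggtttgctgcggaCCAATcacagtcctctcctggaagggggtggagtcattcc
Ube2g1 promoter: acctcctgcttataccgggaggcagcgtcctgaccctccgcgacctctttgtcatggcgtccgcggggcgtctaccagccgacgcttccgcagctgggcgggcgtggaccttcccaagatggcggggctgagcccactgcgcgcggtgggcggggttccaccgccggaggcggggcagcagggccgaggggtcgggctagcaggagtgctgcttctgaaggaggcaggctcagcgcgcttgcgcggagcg
Ube2q1 promoter: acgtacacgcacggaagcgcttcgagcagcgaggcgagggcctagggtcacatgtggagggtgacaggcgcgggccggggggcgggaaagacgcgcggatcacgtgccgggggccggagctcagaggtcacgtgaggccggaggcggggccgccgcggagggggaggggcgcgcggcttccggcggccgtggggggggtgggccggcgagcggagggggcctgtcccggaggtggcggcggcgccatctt

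The Ube2c window held 6 CCAAT matches, 3 on each strand and 2 of them overlapping, and 1 TTTGAA match on the minus strand at 29 to 24 bases before the start. The Ube2t window held 3 CCAAT matches on the plus strand, the first letter of each lying 124, 80 and 40 bases before the start, and no TTTGAA. Neither string was found in the Ube2g1 or Ube2q1 window. Of the 29 genes, 24 had a promoter entry, and 3 of the 24 held TTTGAA (Aktip, Ube2c and Ube2z) while 6 held CCAAT (Aktip, Ube2c, Ube2d3, Ube2e1, Ube2l3 and Ube2t). Some genes had several windows: of the 34 windows of these genes, 3 held TTTGAA and 6 held CCAAT. Aktip held its 2 strings in different windows. Over all 32851 promoter windows of this length, 16% held TTTGAA, 33.8% CCAAT and 5.55% both. These matches describe letters in a window and not binding sites.

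With either hairpin, most ubiquitin E2 genes differed from control by less than 1.5-fold, and 3 of 28 passed the test against control. With Ube2m shRNA, Ube2t, the E2 of the Fanconi anaemia pathway, rose 1.39-fold and Ube2g1, an E2 that extends chains on cullin-RING ligase substrates, rose 1.29-fold. With Ube2f shRNA, Ube2q1, an E2 with a long N-terminal extension, fell to 0.588 of control. Between the hairpins, Ube2c, Ube2g1, Ube2q1 and Ube2t were all higher with Ube2m shRNA. The 2 comparisons with control use the same 3 control arrays, and the third uses both hairpin groups again, so the 3 are not independent.

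With limma and a Benjamini-Hochberg adjusted p under 0.05 over all 10613 genes, 2 of 28 E2 genes passed against control with Ube2m shRNA, beside 9.71% of all genes tested. With Ube2f shRNA 1 of 28 passed, beside 5.19% of all genes. Between the hairpins 4 of 28 passed, beside 15.8%. By direction, both E2 genes called with Ube2m shRNA were higher (3.59% of all genes were called higher and 6.12% lower), the one called with Ube2f shRNA was lower (2.96% of all genes, with 2.23% higher), and all 4 called between the hairpins were higher with Ube2m shRNA (6.37% of all genes, with 9.38% lower). In each comparison the share of E2 genes called (7.14%, 3.57% and 14.3%) was near or under that of all genes. The groups of 3 arrays did not overlap for 8 E2 genes with Ube2m shRNA (28.6%, beside 29.7% of all genes), for 4 with Ube2f shRNA (14.3%, beside 23.2%) and for 7 between the hairpins (25%, beside 34.4%). An unadjusted p under 0.05 was reached by 5 E2 genes with Ube2m shRNA (24.8% of all genes), 4 with Ube2f shRNA (20.2%) and 6 between the hairpins (28.7%).

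The median log2 fold change of the 28 genes was -0.01 with Ube2m shRNA (all genes -0.04), -0.02 with Ube2f shRNA (all genes 0.01) and -0.01 between the hairpins (all genes -0.04). With Ube2m shRNA 14 genes lay above 0, and with Ube2f shRNA 12 did. The median size of the difference, without its sign, was 0.14, 0.11 and 0.13 on the log2 scale, beside 0.19, 0.18 and 0.21 for all genes tested. No E2 gene differed by more than 1.5-fold with Ube2m shRNA, where 8.94% of all genes did, and Ube2q1 was the one E2 gene to do so with Ube2f shRNA, where 6.66% of all genes did. The 95% interval, which covers the spread between arrays, lay wholly within 1.5-fold of control for 21 of 28 E2 genes with Ube2m shRNA (75%, beside 52.9% of all genes) and for 22 with Ube2f shRNA (78.6%, beside 56.7%). Between the hairpins the same held for 19 (67.9%, beside 49.9%). On the log2 scale the interval reached from 0.2 on either side for Ube2g1 to 0.55 for Aktip, with a median of 0.27. For the genes outside those counts, a shift of 1.5-fold was within the interval.

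**Figure D1:**
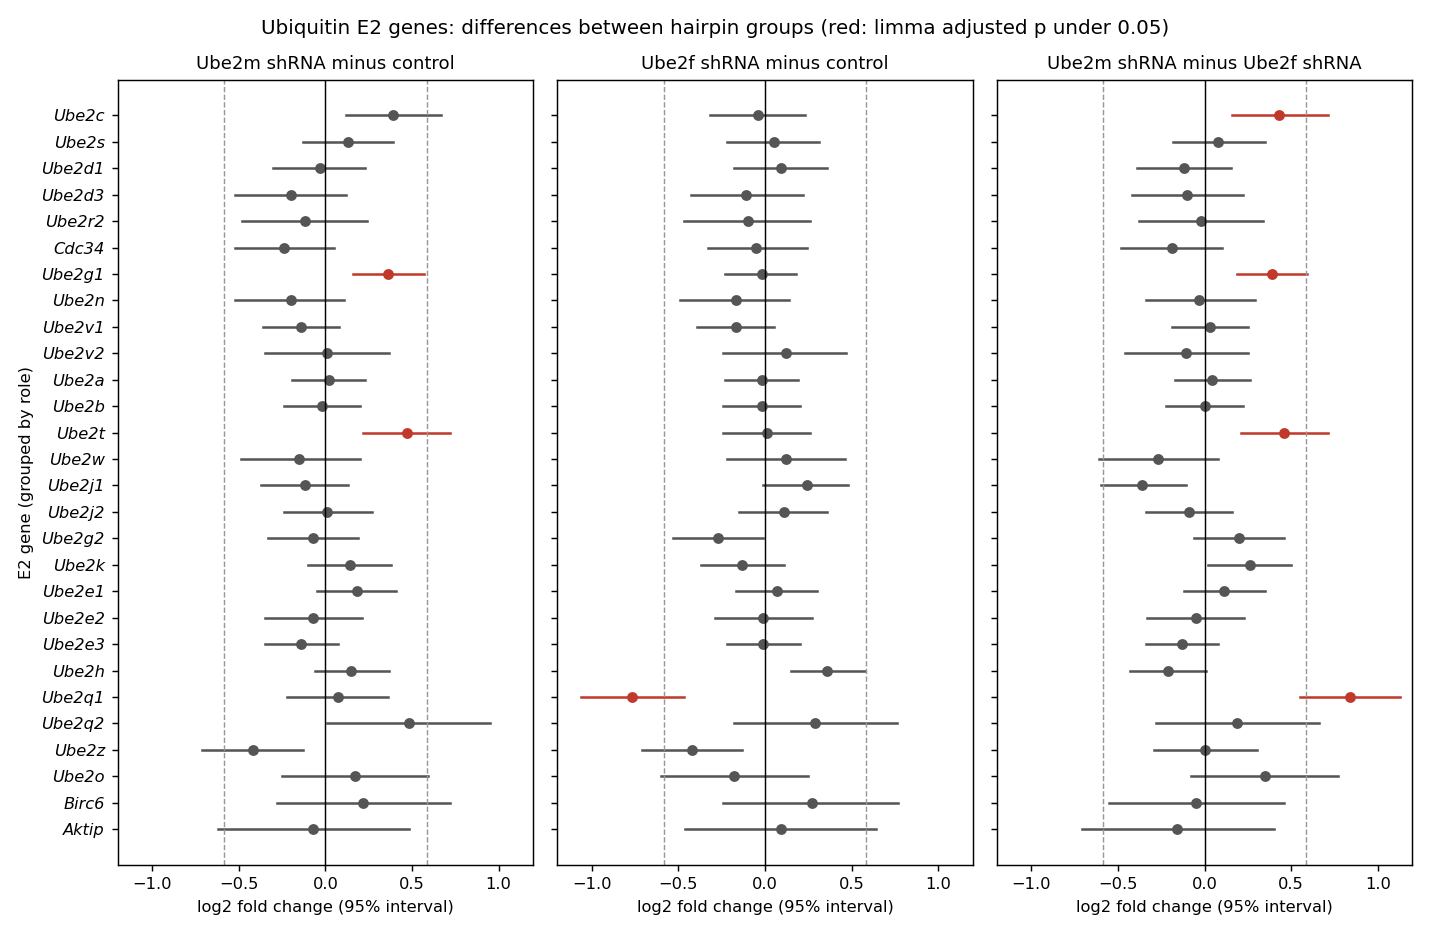
Log2 fold change (horizontal axis) of each of the 28 ubiquitin E2 genes (vertical axis, grouped by role) in the 3 comparisons, with points for the estimate, bars for its 95% interval, red for a limma adjusted p under 0.05 and dashed lines at 1.5-fold. Most bars cross 0, and the red genes are Ube2g1 and Ube2t on the left, Ube2q1 in the middle, and these 3 with Ube2c on the right.

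The targeted gene set the scale for a hairpin on its own mRNA. Signals of Ube2f were 2367, 2492 and 2757 in controls, 3029, 3140 and 2700.4 with Ube2m shRNA, and 134.9, 117.9 and 143.8 with Ube2f shRNA. The Ube2f hairpin group lay far below the other two, which overlapped each other. Ube2f fell by 4.11 on the log2 scale with its own hairpin (SE 0.12, limma adjusted p = 7.45e-10), against a log2 fold change of 0.22 with Ube2m shRNA (adjusted p = 0.278). The greatest fall among the 28 ubiquitin E2 genes with Ube2f shRNA was that of Ube2q1, by 0.77. No probe set names Ube2m alone, so no value is given for the other target and its hairpin has no such check here.

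Ube2c and Ube2s are the E2 pair of the anaphase-promoting complex: Ube2c places the first ubiquitins and Ube2s extends lysine 11 chains. Signals of Ube2c were 6392, 7679.8 and 7085 in controls, 9755, 9695 and 8339.8 with Ube2m shRNA, and 7030.5, 7874 and 5771 with Ube2f shRNA. The 3 Ube2m shRNA arrays lay above all 6 others, and the control and Ube2f shRNA arrays overlapped. The group means were 7052 ± 645 (SD, n = 3), 9263 ± 800.3 and 6892 ± 1058. The log2 fold change was 0.39 with Ube2m shRNA (SE 0.13, limma adjusted p = 0.071), -0.04 with Ube2f shRNA (adjusted p = 0.9) and 0.43 between the hairpins (SE 0.13, adjusted p = 0.035), so that the last difference alone passed. Ube2s, which differed by 0.13 and 0.05 from control, passed in no comparison.

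Several listed E2 genes serve cullin-RING ligases. Ube2g1 read 3405, 3677 and 3489 in controls, 4641, 4672 and 4314 with Ube2m shRNA, and 3673, 3433.5 and 3294 with Ube2f shRNA. All 3 Ube2m shRNA arrays were above the other 6, whereas the control and Ube2f shRNA arrays overlapped. Ube2g1 rose by 0.36 with Ube2m shRNA (SE 0.093, limma adjusted p = 0.0285), was at -0.02 with Ube2f shRNA (adjusted p = 0.922) and was higher by 0.39 in the direct comparison of the hairpins (adjusted p = 0.0137). Cdc34 and Ube2r2, the closely related E2 enzymes that build lysine 48 chains on these ligases, did not pass. Cdc34 read 3631 to 4514 in controls and 3432 to 3574 with Ube2m shRNA, a difference of -0.24 (adjusted p = 0.305) in groups that did not overlap, and -0.05 with Ube2f shRNA. Ube2r2 differed by -0.12 and -0.1, and the priming enzymes Ube2d1 (-0.03 and 0.09) and Ube2d3 (-0.2 and -0.11) did not pass either. The Ube2d3 value with Ube2m shRNA was -0.01 in replicates 1 and 2 and -0.58 in replicate 3. All other Ube2d3 probe sets were at 0.02 to 0.32 with Ube2m shRNA, and at -0.17 to 0.17 with Ube2f shRNA.

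Ube2n makes lysine 63 chains together with Ube2v1 or Ube2v2, partners that lack the catalytic cysteine. With Ube2m and Ube2f shRNA, Ube2n was at -0.2 and -0.17, Ube2v1 at -0.14 and -0.17, and Ube2v2 at 0.01 and 0.12. None of these 6 differences passed. The Ube2v1 arrays with Ube2m shRNA (4942 to 5466) did lie below all control arrays (5529 to 6004).

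Among E2 enzymes of DNA damage signalling and histone ubiquitination, Ube2t alone passed. Its signals were 718.6, 802.8 and 816.8 in controls, 1129, 1163 and 974.7 with Ube2m shRNA, and 761.3, 814.2 and 776.2 with Ube2f shRNA. The Ube2m shRNA arrays were all above the other 6, with replicate 3 the lowest of them, and the Ube2f shRNA arrays lay inside the control range. Ube2t rose by 0.47 with Ube2m shRNA (SE 0.11, limma adjusted p = 0.0226), was at 0.01 with Ube2f shRNA (adjusted p = 0.978) and was higher by 0.46 between the hairpins (SE 0.11, adjusted p = 0.0158). Ube2a and Ube2b, the near-identical Rad6 enzymes that ubiquitinate histone H2B and PCNA, lay between -0.02 and 0.02 in both comparisons with control on their brightest probe sets, with 95% intervals from -0.24 to 0.23. Dimmer probe sets gave other values: that of Ube2a was at 0.52 with Ube2f shRNA (interval 0.24 to 0.8, limma adjusted p = 0.0533 over probe sets), and one of Ube2b was at 0.94 with Ube2m shRNA (interval 0.32 to 1.57, adjusted p = 0.0808). The latter averaged 52 in controls, near the filter level. Ube2w, which ubiquitinates protein N-termini, was at -0.15 and 0.12.

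The E2 enzymes of endoplasmic reticulum-associated degradation, the membrane-anchored Ube2j1 and Ube2j2 and the soluble Ube2g2, passed in no comparison. Ube2j1 came nearest: its signals were 2000, 2241.5 and 2001 in controls, 2010, 2083 and 1663 with Ube2m shRNA, and 2282, 2578 and 2501 with Ube2f shRNA. The Ube2f shRNA arrays were the 3 highest, at 0.24 against control, and the direct comparison gave -0.36 (limma adjusted p = 0.0508). A second Ube2j1 probe set, with a mean of 1045 in controls, lay on the other side of 0 in both. It was at -0.21 with Ube2f shRNA and 0.13 between the hairpins (limma adjusted p = 0.452 and 0.627 over probe sets). Ube2g2 was at -0.27 with Ube2f shRNA (adjusted p = 0.225), and Ube2j2 at 0.01 and 0.11.

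Ube2q1 was the E2 gene with the greatest difference. It read 1290, 1167 and 1310 in controls, 1193, 1464 and 1314 with Ube2m shRNA, and 733.6, 860.1 and 617.2 with Ube2f shRNA. The Ube2f shRNA arrays lay below all others, and the control and Ube2m shRNA arrays overlapped. With Ube2f shRNA it fell by 0.77 (SE 0.13, 95% interval -1.06 to -0.47, limma adjusted p = 0.0066), with Ube2m shRNA it was at 0.07 (adjusted p = 0.804), and between the hairpins it differed by 0.84 (SE 0.13, adjusted p = 0.00121). Its relative Ube2q2 was at 0.48 with Ube2m shRNA (95% interval 0.01 to 0.95, adjusted p = 0.189), with arrays of 480.1 to 536 above those of controls (335.9 to 363.8), and at 0.29 with Ube2f shRNA.

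Ube2z, which receives ubiquitin from the E1 enzyme Uba6, read 3363, 2422.5 and 2304 in controls, 1974, 2030 and 1951 with Ube2m shRNA, and 1827, 2098.5 and 2025 with Ube2f shRNA. All 6 hairpin arrays were below the controls, and control replicate 1, the array with the actin ratio of 1.82, was the highest. The difference was -0.42 with each hairpin and passed with neither (limma adjusted p = 0.0715 and 0.0963). Without control replicate 1 it was -0.25 with each (adjusted p = 0.215 and 0.252). With replicates 1 and 2 alone, or with replicate 3 as a batch term, it passed with both. In the main fit the hairpins differed from each other by 0 (95% interval -0.29 to 0.3). A dimmer Ube2z probe set, with a mean of 266.4 in controls, was at -0.18 with Ube2m shRNA and 0.1 with Ube2f shRNA. Neither passed (limma adjusted p = 0.613 and 0.823 over probe sets). Ube2h, the E2 of the CTLH ligase, read 1233, 1399 and 1340 in controls, 1438, 1444.5 and 1540 with Ube2m shRNA, and 1752, 1628.5 and 1744 with Ube2f shRNA. The 3 groups did not overlap, and neither difference from control passed (0.15, adjusted p = 0.374, and 0.36, adjusted p = 0.057).

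The remaining E2 genes passed in no comparison. Ube2k, which makes lysine 48 chains by itself, was at 0.14 with Ube2m shRNA and -0.13 with Ube2f shRNA. The Ube2e enzymes, which carry extended N-termini, lay between -0.14 and 0.18. Ube2o, an enzyme that combines E2 and E3 activity, was at 0.17 and -0.18. Birc6, a giant anti-apoptotic protein with an E2 domain, was at 0.22 and 0.27, and Aktip, a partner of the Hook proteins, at -0.07 and 0.09.

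**Figure D2:**
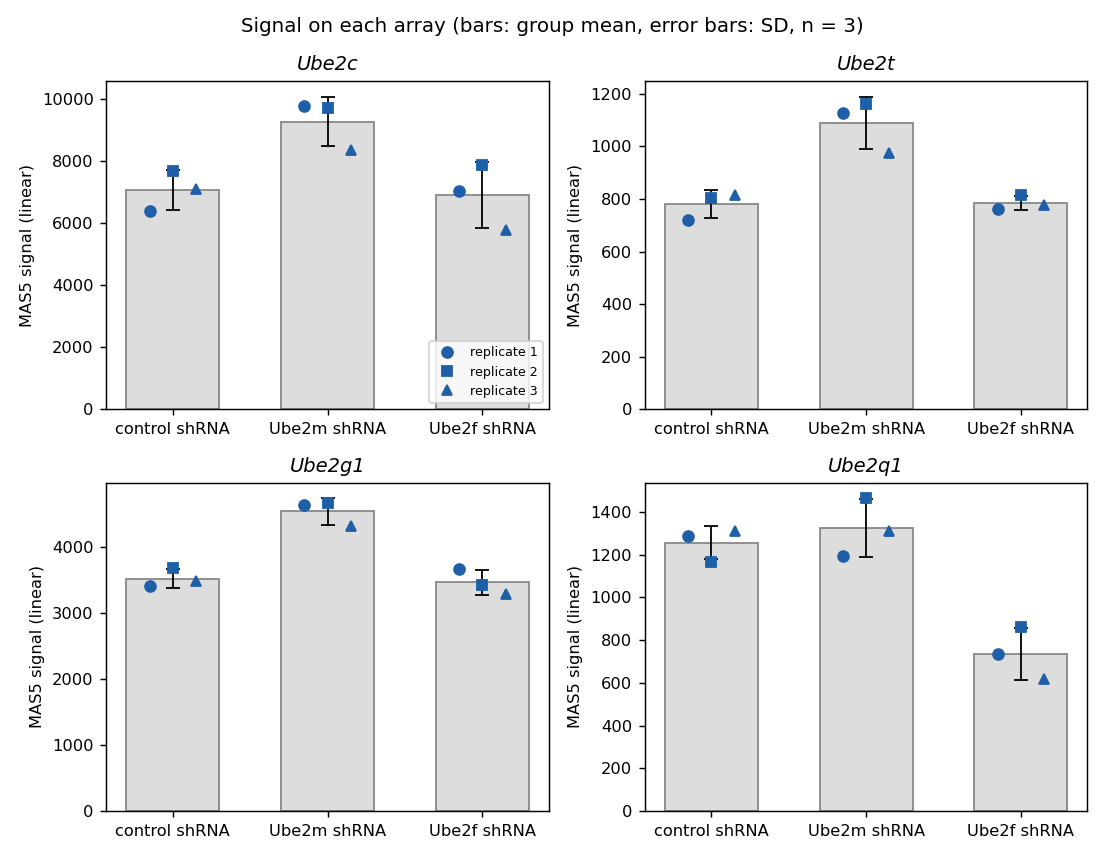
Linear MAS5 signal (vertical axis, starting at 0) of the 4 E2 genes that passed in a comparison, by hairpin group, with bars for the mean, error bars for the SD (n = 3) and a symbol for each replicate number. The Ube2m shRNA arrays stand above the other groups for Ube2c, Ube2t and Ube2g1, and the Ube2f shRNA arrays stand below them for Ube2q1.

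Within replicates 1 and 2 the difference from control with Ube2m shRNA was 0.47 for Ube2c, 0.39 for Ube2g1 and 0.58 for Ube2t, and within replicate 3 it was 0.23, 0.31 and 0.25. The fall of Ube2q1 with Ube2f shRNA was -0.62 in replicates 1 and 2 and -1.07 in replicate 3. With replicates 1 and 2 alone, 4 E2 genes passed with Ube2m shRNA by limma, the added ones being Ube2c (0.47, adjusted p = 0.00881) and Ube2z (-0.51, adjusted p = 0.0287), and Ube2z also passed with Ube2f shRNA (-0.54, adjusted p = 0.0315). With replicate 3 as a batch term, Ube2c (adjusted p = 0.0142) and Ube2z (0.0259) passed with Ube2m shRNA, Ube2z (0.0334) and Ube2h (0.0119) with Ube2f shRNA, and Ube2j1 (0.0127) and Ube2k (0.0385) between the hairpins, at the same fold changes as without the term. Without control replicate 1, Ube2m shRNA replicate 1 or Ube2m shRNA replicate 2 in turn, none did (Ube2t, adjusted p = 0.0771, 0.0987 and 0.109, and Ube2g1, 0.0895, 0.12 and 0.124), and Ube2g1 also no longer passed without control replicate 2 or control replicate 3 (adjusted p = 0.0511 and 0.0542). With the actin ratio as a covariate none passed with Ube2m shRNA (Ube2g1 0.35, adjusted p = 0.0937, and Ube2t 0.41, adjusted p = 0.0857), nor with each array centred on its median over non-control probe sets (0.28, adjusted p = 0.441, and 0.39, adjusted p = 0.243). With each array centred over the genes tested instead, a setting chosen after seeing the data, Ube2g1 and Ube2t both passed. Between the hairpins, leaving out Ube2m shRNA replicate 1 or replicate 2 ended the calls of Ube2c (adjusted p = 0.126 and 0.127), Ube2t (0.0703 and 0.0815) and Ube2g1 (0.0638 and 0.0691). Leaving out Ube2f shRNA replicate 1 ended those of Ube2c (0.0851) and Ube2t (0.0651), and leaving out Ube2f shRNA replicate 3 ended that of Ube2c (0.0999). Ube2q1 passed with Ube2f shRNA without any one of the 9 arrays.

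Some E2 genes varied more between replicate numbers than between hairpins. Birc6 was higher on the 3 arrays of replicate 3 (2762, 3282 and 2789) than on all other arrays (1499.7 to 2392). Aktip was lower there (468.9, 591.5 and 642.1, against 792.2 to 1047), and so was Ube2e2. Over all genes tested, 4.42% were higher and 6.15% lower on all 3 arrays of replicate 3. The replicate number held 74.5% of the variation of Birc6, 77.7% of that of Aktip and 89.8% of that of Ube2e2, while the hairpin group held 91.4% for Ube2g1, 88.5% for Ube2q1 and 87.9% for Ube2t. Over the 28 genes the median share was 30% for the group and 24% for the replicate number, beside 42.3% and 20.6% over all genes tested. The replicate number held more than the group in 13 of 28 E2 genes (46.4%), beside 35.9% of all genes tested.

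Separate probe sets of the same E2 gene were fitted each on its own. The 28 genes had 72 probe sets, of which 63 passed the filter, and 20 genes had more than 1. With this fit 2 probe sets passed with Ube2m shRNA (Ube2g1 and Ube2t, beside 5.37% of 19684 probe sets), 2 passed with Ube2f shRNA (both of Ube2q1, beside 3.39%) and 7 passed between the hairpins (beside 10.8%). The second Ube2q1 probe set had a mean of 571 in controls, 421.8 with Ube2m shRNA and 276.1 with Ube2f shRNA. It fell by 1.01 with Ube2f shRNA (limma adjusted p = 0.00757), and with Ube2m shRNA it was at -0.41 (adjusted p = 0.169) where the brighter one was at 0.07. The second Ube2g1 probe set was at 0.45 with Ube2m shRNA (adjusted p = 0.114) and at -0.48 with Ube2f shRNA (adjusted p = 0.116), and the hairpins differed by 0.93 (adjusted p = 0.00298). Ube2c and Ube2t had no other probe set in the test, and Ube2c did not pass in it (adjusted p = 0.053 between the hairpins).

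Other genes had probe sets that disagreed. All tested probe sets of a gene lay on the same side of control in 7 of 20 genes with Ube2m shRNA and in 8 of 20 with Ube2f shRNA. For Ube2h the brightest probe set was at 0.15 with Ube2m shRNA and the other 3 at -0.54, -0.55 and -0.53 (limma adjusted p = 0.323, 0.0821 and 0.0971). The dimmer Ube2n probe set averaged 214.7 in controls, 228.2 with Ube2m shRNA and 123.6 with Ube2f shRNA, a difference of 0.84 between the hairpins (adjusted p = 0.0368) where the brighter one gave -0.03. For Ube2w the dimmer probe set gave -0.57 between the hairpins (adjusted p = 0.0464). The probe sets used for Ube2s and Ube2v1 have names ending in _s_at and may match several transcripts.

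**Figure D3:**
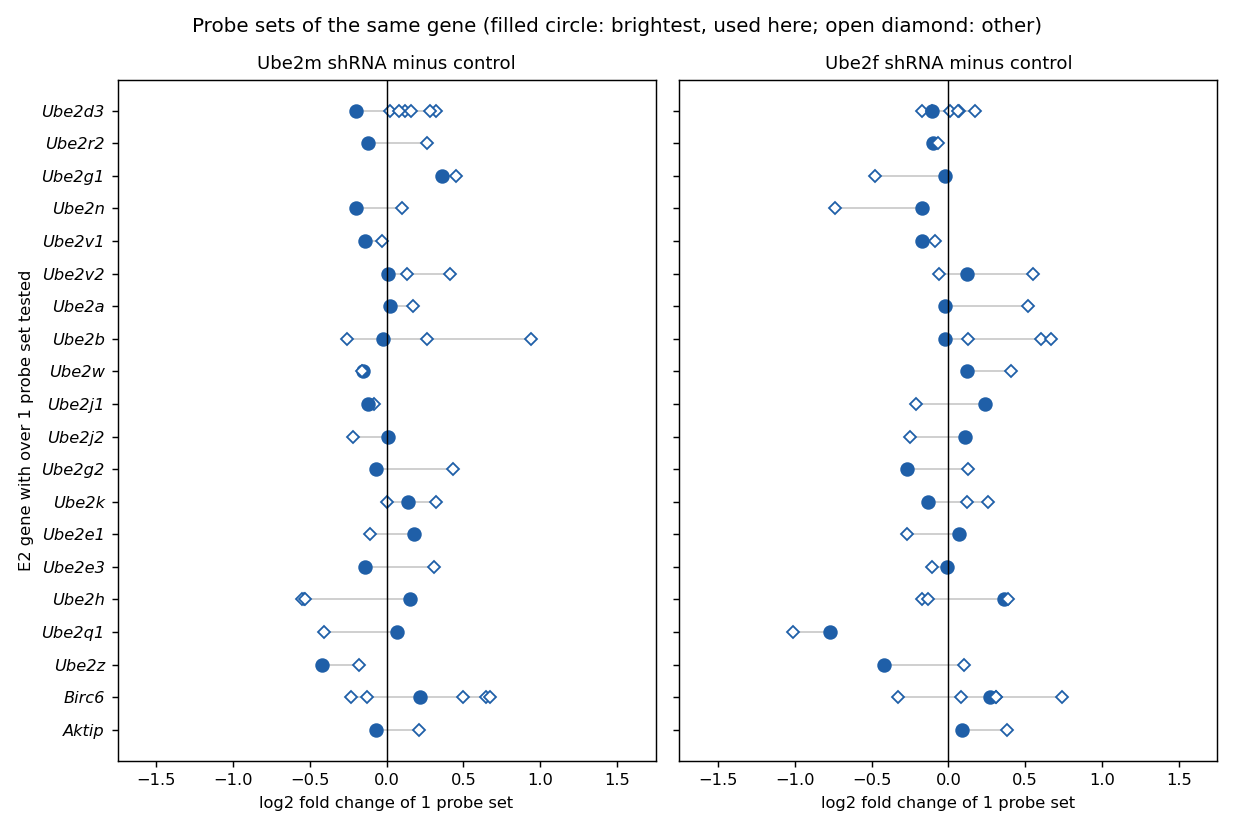
Log2 fold change (horizontal axis) of each tested probe set of the 20 E2 genes with more than 1 (vertical axis), against control with Ube2m shRNA (left) and Ube2f shRNA (right), with filled circles for the brightest probe set and open diamonds for the others. Both Ube2q1 probe sets lie on the low side with Ube2f shRNA (-0.77 and -1.01), whereas those of Ube2h lie on both sides with Ube2m shRNA.

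Genes of the same pathways were counted in the same limma fit. The E1 enzymes, ubiquitin genes and ubiquitin-like E2 enzymes had 17 of 28 listed genes in the test. None passed with Ube2m shRNA, where at an unadjusted p under 0.05 there were 2 higher genes and none lower, beside 24.8% of all genes (median log2 fold change -0.03). With Ube2f shRNA Atg10, the E2-like enzyme that conjugates Atg12, rose by 0.68 (adjusted p = 0.0437) and Ube2f itself fell (11.8%, beside 5.19% of all genes). Between the hairpins Atg10 (-0.79) and Uevld (-0.60), a protein with an E2-like domain, were lower and Ube2f higher with Ube2m shRNA (17.6%, beside 15.8% of all genes). The shares of 11.8% and 17.6% count Ube2f, the target of a hairpin, and so overstate the calls among the other listed genes.

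Of the 56 listed E3 ligases and regulators that work with these E2 enzymes, 50 were tested. With Ube2m shRNA 4 fell and none rose (8%, beside 9.71% of all genes called in either direction and 6.12% called lower). Rnf7, the RING partner of Ube2f, fell by 0.48 and Btrc, a substrate receptor of SCF ligases, by 0.52. Itch, a HECT ligase, fell by 0.51 and Sel1l, a scaffold of the ligase Syvn1, by 0.69. At an unadjusted p under 0.05 there were 2 higher and 11 lower genes with Ube2m shRNA, beside 24.8% of all genes in either direction. With Ube2f shRNA Sel1l fell by 0.50 (adjusted p = 0.0375) and no other passed (2%, beside 5.19% of all genes). The median was -0.12 with Ube2m shRNA and -0.04 with Ube2f shRNA, beside -0.04 and 0.01 for all genes tested. Between the hairpins Ube4b (0.62) and Rnf4 (0.46) were higher and Cul4a (-0.44), Btrc (-0.66) and Ubr1 (-0.47) lower with Ube2m shRNA (10%, beside 15.8% of all genes). Fancl, the E3 partner of Ube2t, was at -0.18 and -0.08 and did not pass.

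The list of cell cycle genes that share the G2/M pattern of Ube2c had 31 of 32 genes in the test. With Ube2m shRNA 3 rose, Cdca2 by 0.67, Kif20a by 0.53 and Kif2c by 0.52 (limma adjusted p = 0.0361, 0.0378 and 0.0409), and none fell. Their share was 9.68%, beside 9.71% of all genes called in either direction and 3.59% called higher. At an unadjusted p under 0.05 there were 17 higher genes and none lower, beside 24.8% of all genes in either direction. Of the 31 genes, 29 lay above 0, and the median was 0.29, beside -0.04 for all genes tested. With Ube2f shRNA none passed (before adjustment, a p under 0.05 was reached by 2 higher genes and 1 lower gene, beside 20.2% of all genes), and the median was 0.02. Between the hairpins 8 were higher with Ube2m shRNA (25.8%, beside 15.8% of all genes in either direction and 6.37% called higher). Among them were the mitotic kinase Plk1 (0.48), Cdk1 (0.37) and Ccna2 (0.36), and the median of the list was 0.2. Ube2c at 0.39 and Ube2t at 0.47 were above the median of this list with Ube2m shRNA, and Ube2s at 0.13 was below it.

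**Figure D4:**
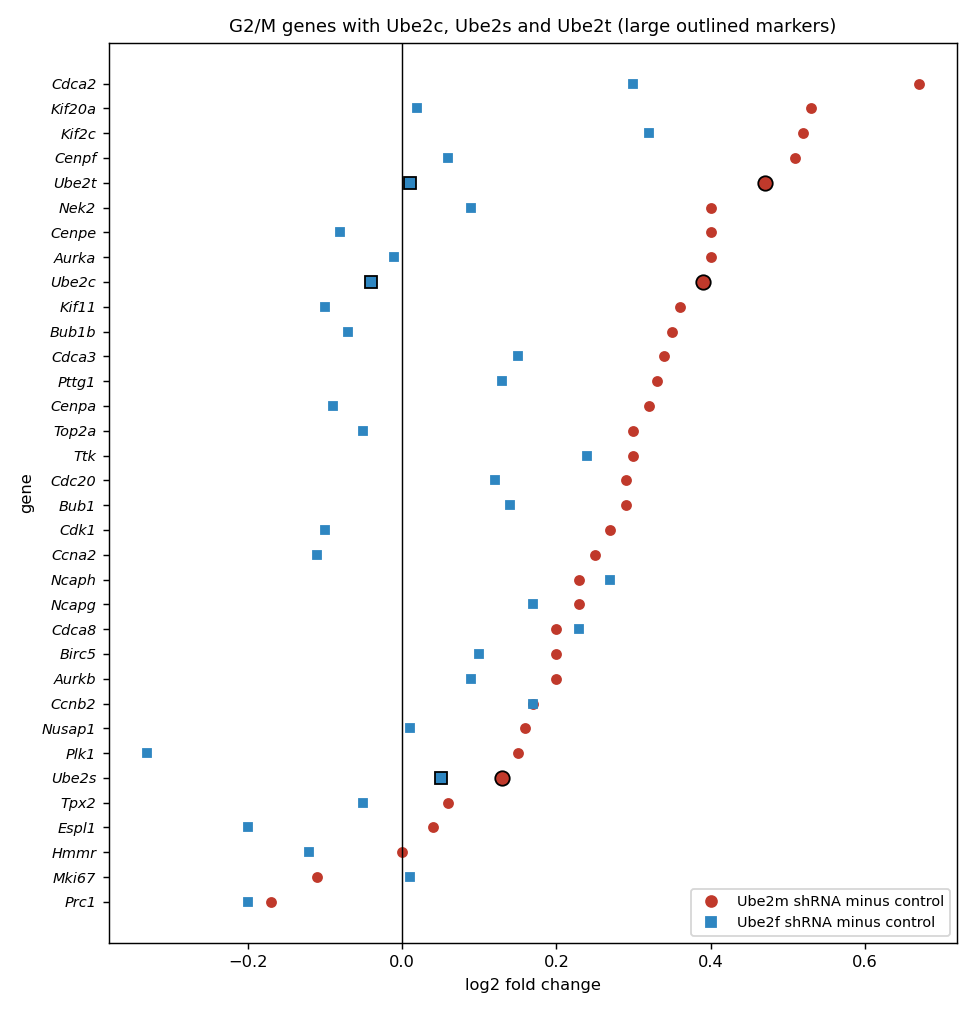
Log2 fold change against control (horizontal axis) of 31 G2/M genes with Ube2c, Ube2s and Ube2t as large outlined markers (vertical axis, ordered by the value with Ube2m shRNA), with red circles for Ube2m shRNA and blue squares for Ube2f shRNA. Of the 31 G2/M genes, 29 lie above 0 with Ube2m shRNA and 18 with Ube2f shRNA.

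The Fanconi anaemia and crosslink repair genes, the pathway in which Ube2t acts, had 18 of 20 genes in the test and none passed in any comparison by limma. Before adjustment, a p under 0.05 was reached by 2 higher and 2 lower genes with Ube2m shRNA, 2 higher genes with Ube2f shRNA and 2 lower genes between the hairpins. Over all genes tested the shares were 24.8%, 20.2% and 28.7%. The 2 with the smallest p were Brca2, at -0.58 with Ube2m shRNA (adjusted p = 0.0909), and Wdr48, a partner of the deubiquitinase Usp1, at 0.49 with Ube2f shRNA (adjusted p = 0.122). The medians were 0.04, 0.1 and -0.06.

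The called E2 gene with the smallest p in each comparison was set beside all genes tested by Pearson correlation of log2 signals over the 9 arrays. The arrays share hairpin groups and replicate numbers, so genes that differ in the same group correlate. The genes most like Ube2t were Mtfr2 (r = 0.984), Glipr1 (0.978) and 2810002D19Rik (0.971). Those most like Ube2q1 were Pla2g6 (0.976), Pde8b (0.969) and Sox21 (0.967).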

How the data were processed

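Deposited values were linear intensities, 1 per probe set and array, made by the authors with MAS5, per the submitters' processing notes. The sources used here do not give its version or settings. The mean after trimming extremes was 500 on every array, so each had been scaled by 1 factor, which leaves differences in the shape of the distribution in place. Of 45101 probe sets, 64 controls, 932 with several genes and 9160 with no gene were left out. For each gene the probe set with the highest mean log2(signal + 16) was used, and genes were tested if that mean reached 6.12, the median over non-control probe sets (53.8 as a signal). Fold changes are on the log2(signal + 16) scale and understate those of dim genes. No signal was set against that of another gene.

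All 9 arrays entered one linear model with a mean for each group (R 4.3.3 and limma 3.58.1, using lmFit, contrasts.fit and eBayes, the last with its intensity trend), with two-sided p-values adjusted by Benjamini-Hochberg over 10613 genes and a threshold of 0.05. SE is that of the log2 fold change, and 95% intervals come from the same fit. The fit was also run on simulated data with independent noise on each array. That run does not cover deviations shared by arrays of the same replicate number. The 3 arrays a group limit the precision, and an exact permutation test of 3 against 3 cannot give a p under 0.1.

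The genes, pathway lists and tests were chosen with earlier results of these data known. Named genes are all listed E2 genes, the hairpin targets, the pathway genes that passed (or else the 2 with the smallest p) and the 3 genes most correlated with the E2 gene of smallest p. Some further list genes were picked as examples after their values were seen. Alternatives covered the added constant, the filter, the choice of probe set, scaling, the samples fitted, the replicate number, the actin ratio and each array left out. The mouse reference listed all 29 symbols. Promoters came from a RefSeq table.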

Additional observations from a re-analysis of the deposited data

Results flagged for a closer look

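The effects of the hairpins differed from each other for 4 ubiquitin E2 genes, by the direct comparison of the Ube2m and Ube2f shRNA arrays with limma and Benjamini-Hochberg adjustment. The effect of Ube2m shRNA minus that of Ube2f shRNA, on the log2 scale, was 0.84 for Ube2q1, 0.46 for Ube2t, 0.43 for Ube2c and 0.39 for Ube2g1. These 4 are 14.3% of the E2 genes, beside 15.8% of all genes that passed in this comparison. For each of the 4 genes, all 3 Ube2m shRNA arrays were above all 3 Ube2f shRNA arrays. The 4 were picked by this same comparison, and such arrays were found for 14.3% of E2 genes and 13.7% of all genes. On the brightest probe sets, the group that stood apart from control for Ube2q1 was that with Ube2f shRNA. For the other 3 genes it was that with Ube2m shRNA, although Ube2c did not pass against control (limma adjusted p = 0.071). The second Ube2g1 probe set was at 0.45 with Ube2m shRNA and -0.48 with Ube2f shRNA, and neither group overlapped the controls. For the second Ube2q1 probe set the values were -0.41 and -1.01, again without overlap with the controls.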

How the results depend on the processing

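Ube2q1 passed under 20 of 20 alternatives with Ube2f shRNA (-0.89 to -0.62) and between the hairpins (0.72 to 0.95), and Ube2f kept its fall (-4.17 to -2.71). With Ube2m shRNA, Ube2t passed under 14 and Ube2g1 under 13 of 20, and between the hairpins Ube2c passed under 14, Ube2t under 15 and Ube2g1 under 17. The E2 genes passing with Ube2m shRNA numbered 2, against 1 with probe sets averaged, 0 with arrays centred on their median, 4 with the replicate number as a block, 4 with replicate 3 as a batch, 4 with replicates 1 and 2 alone, 0 with the actin ratio and 0 to 3 without single arrays. With Ube2f shRNA they numbered 1, against 2 with probe sets averaged, 3 with the replicate block, 3 with replicate 3 as a batch, 2 with replicates 1 and 2 alone, and 1 to 1 without single arrays. Between the hairpins they numbered 4, against 1 with arrays centred and 1 to 4 without single arrays (1 without Ube2m shRNA replicate 1 or replicate 2, 2 without Ube2f shRNA replicate 1).

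All genes passing numbered 1031 with Ube2m shRNA, against 607 (averaged), 525 (centred), 1866 (replicate block), 2118 (replicate 3 as a batch), 1747 (replicates 1 and 2), 448 (actin ratio) and 388 to 1177 without single arrays. With Ube2f shRNA they numbered 551, against 271, 222, 1225, 1461, 1121 and 249 in that order, 350 with only the 2 groups compared and 195 to 583 without single arrays. Between the hairpins they numbered 1672, against 1109 (averaged), 868 (centred), 2714 (replicate 3 as a batch) and 1017 to 1813 without single arrays. Among E2 values that passed in the main fit or under the alternative, a single one changed sign. Ube2n was at 0.41 between the hairpins with probe sets averaged (limma adjusted p = 0.0338). Of the 559 E2 values in each comparison, sign changes without a pass in either fit numbered 40 with Ube2m shRNA. They numbered 49 with Ube2f shRNA and 39 between the hairpins. The causes were not tested.

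No label says what a replicate number marks. Deviations of same-numbered arrays from their group means correlated at 0.32 to 0.56 in replicate 3, 0.16 to 0.21 in replicate 2, and 0, 0.01 and 0.2 in replicate 1 (arrays of different number, -0.39 to 0.28). For lack of such a label the number was kept as an alternative, although 7 of the 9 same-numbered pairs correlated above 0.1. Replicates 2 and 3 deviated together across groups, which the main fit does not model. With the replicate block, Ube2c (adjusted p = 0.0173) and Ube2z (0.0345) also passed with Ube2m shRNA, Ube2z (0.0452) and Ube2h (0.0217) with Ube2f shRNA, and Ube2j1 (0.0144) between the hairpins. Centring moved the median of all genes by at most 0.08. With each array centred over the genes tested, a setting chosen after seeing the data, 534 genes were higher and 432 lower with Ube2m shRNA, against 381 and 650. The E2 genes passing were then the same as in the main fit: 2 with Ube2m shRNA, 1 with Ube2f shRNA and 4 between the hairpins.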
